A study of Mus musculus with 4 samples.

Results

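CXC chemokines are small secreted proteins, named for the single residue between their first pair of cysteines, that guide leukocytes by binding G protein-coupled receptors. Members with a glutamate-leucine-arginine motif before the cysteines bind CXCR2 and attract neutrophils, and in myeloid cells their genes are classical targets of NF-kappaB. The interferon-inducible members bind CXCR3 and attract activated T cells, whereas CXCL12 and CXCL14 are made constitutively in many tissues and CXCL16 is held in the membrane until it is shed. The family was taken here as the gene models named Cxcl1, Cxcl2, Cxcl3, Cxcl5, Cxcl9, Cxcl10, Cxcl11, Cxcl12, Cxcl14 and Cxcl16, which is 10 of the 51826 gene models in the deposited table.

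The study measured messenger RNA in primary microglia of newborn C57BL/6 mice by poly-A RNA sequencing. In both groups brain cells without meninges grew for 2 weeks as a mixed culture, from which microglia were shaken off. There were 2 libraries of untreated (mock) cells and 2 of cells treated for 4 h with lysophosphatidylserine (LysoPS), a lipid ligand of the receptor GPR34, whose role in neuroinflammation the series title names. The treatment protocol speaks of a single treated replicate while 2 samples carry the LysoPS label, and the labels were followed. The labels give neither the dose nor whether replicates were separate cultures or animals, so p-values measure only the spread between these samples, which may be technical.

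Library totals ranged from 30001098 to 45193959 counts. The cultures held transcripts of several cell types. For the counts of called markers that follow, 12.8% of all 19057 tested genes were called higher and 12.6% lower, by the test given below. Of 12 microglia and macrophage markers, 7 were called higher and 2 lower after LysoPS, with a summed level of 4030 to 4280 TPM (the deposited measure of transcript abundance scaled by length and library) in mock and 4600 to 4870 after LysoPS. Of 8 astrocyte markers, 7 were called lower, and their sum went from 6910 to 7520 TPM in mock to 2930 to 3490. Of 7 fibroblast markers 3 were called lower, with sums of 6380 to 6740 and 4540 to 5080 TPM. Among 4 tested endothelial markers 2 were called lower, among 6 oligodendrocyte lineage markers 3 higher, and among 4 mural and 5 neuronal markers none passed at an adjusted p of 0.05. The neutrophil-defining Ly6g, S100a9 and Retnlg and the T cell genes Cd3d, Cd3e, Cd3g and Cd8a had no count in any library. Other genes of these lists had counts. Camp went from none in mock to 39 and 27 after LysoPS and was called higher, S100a8 had 0 and 6 in mock and 44 and 21 after LysoPS (adjusted p = 0.0621), and Trac of the T cell list had 5 to 13 in each library. The neutrophil list as a whole, with 1 of 2 tested genes called higher, summed to 0.0834 to 0.563 TPM in mock and 3.82 to 7.77 after LysoPS. Of the T cell list only Cd4, which macrophages can also carry, was tested, and it was called lower. In such bulk samples fewer cells of a type and less RNA per cell cannot be told apart, and the part of the cell mixture in the values below was not tested.

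Most of the CXC family rose. All 10 members passed the filter on low counts. Cxcl2, Cxcl3, Cxcl9 and Cxcl11 passed it only through their LysoPS libraries, so they could hardly have been called lower. By edgeR's quasi-likelihood test with Benjamini-Hochberg adjustment over 19057 tested genes, 8 were called higher after LysoPS at an adjusted p under 0.05 and none lower, where 12.8% of all tested genes were called higher and 12.6% lower. All 8 had an estimate of at least 2-fold higher, and 4.32% of tested genes were called with such an estimate. The same 8 had both LysoPS libraries above both mock libraries, an arrangement shown by 32.5% of tested genes in CPM (counts scaled by the library size after TMM, the trimmed mean of M-values). For 7 of them the estimate, or for Cxcl11 its lower bound, was at least 16-fold. Of tested genes 0.499% were called with an estimate of that size. The estimate of Cxcl9 was 17.0-fold from 2 mock counts, and the counting interval of its ratio, given below, began at 4.84. The median log2 fold change over the 10 members was 5.24, or 5.22 with Cxcl11 at its lower bound, beside -0.01 over all tested genes. The members not called were Cxcl12 and Cxcl14.

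Sequences just upstream of the genes are shown first, because Cxcl1, Cxcl2 and Cxcl3 share a stretch there. Of the 10 members, 7 had a promoter window in the RefSeq table (GRCm38.p6; Cxcl5, Cxcl11 and Cxcl16 had no entry), reaching from 250 bases before the start site to 50 after it. The last 100 bases before the start sites of Cxcl1 (chr5:90891145-90891244), Cxcl2 (chr5:90903799-90903898) and Cxcl3 (chr5:90786001-90786100), all on the plus strand, read as follows, with matches to the kappaB consensus on either strand in capitals. The motifs were chosen after the windows were seen.
Cxcl1: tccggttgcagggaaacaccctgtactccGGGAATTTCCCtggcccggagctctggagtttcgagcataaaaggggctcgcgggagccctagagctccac
Cxcl2: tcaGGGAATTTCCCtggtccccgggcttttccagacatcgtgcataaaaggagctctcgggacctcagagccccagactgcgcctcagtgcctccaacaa
Cxcl3: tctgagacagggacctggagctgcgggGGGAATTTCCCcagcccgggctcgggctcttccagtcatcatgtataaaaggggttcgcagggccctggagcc
Each holds the letters GGGAATTTCC on the gene's strand, beginning 71 bases before the start site in Cxcl1, 97 in Cxcl2 and 73 in Cxcl3. Of 32851 mouse windows of this length 29 (0.0883%) hold those letters on either strand. The letters were copied from the Cxcl1 window, and Cxcl1, Cxcl2 and Cxcl3 are themselves among the 29. That share therefore cannot show how unexpected the stretch is in these genes. The wider kappaB consensus (with any base but G at the sixth position), of which GGGAATTTCC is one form, is held by 6.93% of windows.

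The window of Cxcl10 (chr5:92348840-92349139, minus strand) is shown whole because it holds matches of a second kind.
Cxcl10: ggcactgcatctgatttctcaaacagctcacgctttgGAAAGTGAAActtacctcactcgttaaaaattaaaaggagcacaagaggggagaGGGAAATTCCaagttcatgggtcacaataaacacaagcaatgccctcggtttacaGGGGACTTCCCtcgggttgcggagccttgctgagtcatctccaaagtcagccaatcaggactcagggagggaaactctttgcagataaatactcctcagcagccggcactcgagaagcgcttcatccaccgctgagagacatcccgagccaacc
The first run of capitals matches GAAANNGAAA, the core of the interferon-stimulated response element searched on both strands, and begins 213 bases before the start site. The other runs match the kappaB consensus, beginning 159 and 104 bases before it, and the last is a pair of overlapping matches. The GAAANNGAAA core is found in 3.44% of windows, among the members also in that of Cxcl14. None of these motifs was found in the windows of Cxcl9 and Cxcl12. Only full matches to the patterns were searched, so similar sequences that differ by a base are not covered. A match describes letters only, and binding was not measured.

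In the untreated cultures the family was carried by members other than the inflammatory ones. Cxcl14 and Cxcl12 stood highest, at 35.2 ± 1.09 and 34.2 ± 0.335 TPM (mean ± SD, n = 2), with library values that overlapped, followed by Cxcl16 at 29.9 ± 0.969 and Cxcl10 at 11.7 ± 3.35. Cxcl1, Cxcl5 and Cxcl2 lay near or below 1 TPM, the last pair overlapping, and Cxcl3, Cxcl9 and Cxcl11 were listed at 0 in at least 1 mock library and did not differ beyond their spread. After LysoPS the order was Cxcl10, Cxcl1, Cxcl16, Cxcl2, Cxcl5, Cxcl14, Cxcl12, Cxcl3, Cxcl11 and Cxcl9, and within that group both libraries of each member lay above both libraries of the next. The summed level of the 10 members was 116 and 111 TPM in mock replicates 1 and 2 and 633 and 563 TPM in LysoPS replicates 1 and 2. Every comparison of levels between members uses TPM, which is scaled by transcript length.

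**Figure D1:**
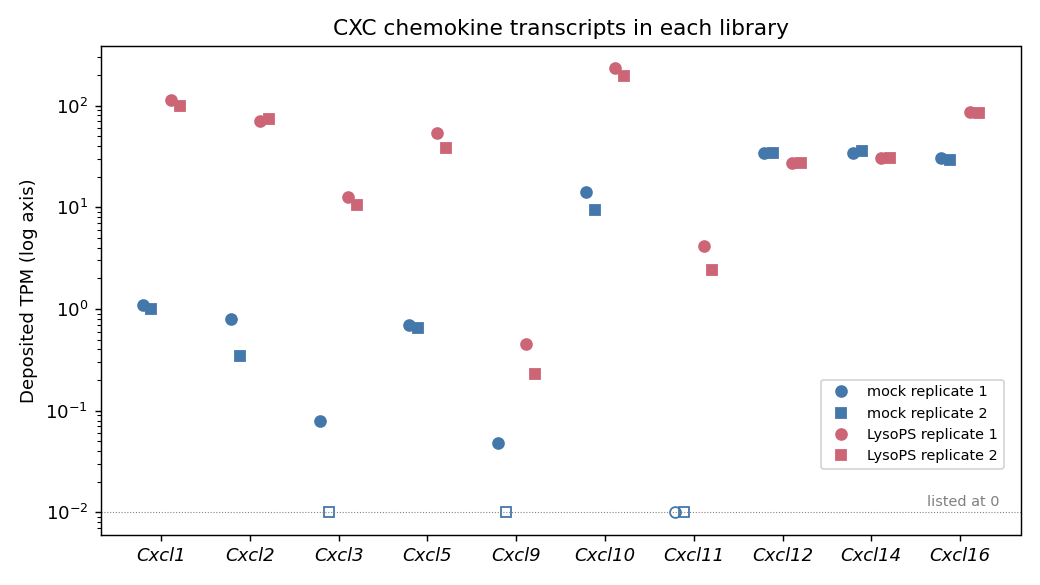
Deposited TPM (log axis) of each CXC chemokine in the 4 libraries, circles for replicate 1 and squares for replicate 2, open symbols for values listed at 0. LysoPS libraries lie above mock libraries for 8 members, and Cxcl12 and Cxcl14 stay between 27.0 and 36.0 TPM throughout.

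The makeup of the family changed with its sum. The 4 CXCR2 ligands together gave 2.67 and 2.00 TPM in mock and 252 and 221 after LysoPS, so their share of the family went from 2.29% and 1.81% to 39.7% and 39.2%. The 3 CXCR3 ligands, almost wholly Cxcl10, gave 14.1 and 9.37 TPM in mock and 238 and 200 after LysoPS. Cxcl12 and Cxcl14 together held 59.2% and 63.3% of the family in mock and 9.07% and 10.2% after LysoPS, with sums of 68.9 and 70.0 TPM and then 57.4 TPM in each LysoPS library. These shares are values of 2 libraries a group and were not tested.

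**Figure D2:**
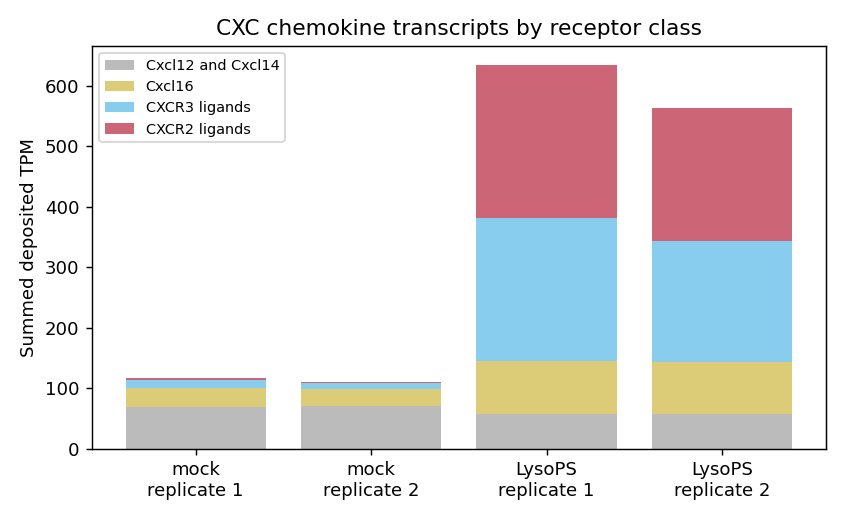
Summed deposited TPM of the CXC chemokines in each library, stacked by receptor class (grey Cxcl12 and Cxcl14, yellow Cxcl16, blue CXCR3 ligands, red CXCR2 ligands). The red part grows from under 3 TPM in both mock libraries to 252 and 221 TPM in the LysoPS libraries, while the grey part lies between 57.4 and 70.0 TPM in all 4.

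Among the neutrophil attractants, Cxcl1 (ENSMUSG00000029380, chromosome 5, 90891241 to 90893115, plus strand, GRCm38) had 17 and 23 counts in mock and 1995 and 2201 after LysoPS, or 1.09 and 1.01 against 114 and 99.4 TPM. The replicates of each group lay close together and the groups far apart. Its log2 fold change was 6.66 ± 0.16 (SE; adjusted p = 0.000248 by edgeR's quasi-likelihood test). Leaving out any 1 library kept it between 6.53 and 6.78, the narrowest range among the CXCR2 ligands.

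Cxcl2 (ENSMUSG00000058427, 90903871 to 90905938 on the same strand) encodes a second ligand of CXCR2 that macrophages release early. It stood at 0.801 and 0.346 TPM in mock, from 14 and 7 counts, and at 71.1 and 72.9 TPM after LysoPS, from 1427 and 1955 counts. The LysoPS libraries were nearly level, and the spread lay in the mock libraries. Its log2 fold change of 7.23 ± 0.33 (adjusted p = 0.000457) became 8.05 without mock replicate 1 and 6.58 without mock replicate 2.

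Cxcl3 (ENSMUSG00000029379, 90786103 to 90789600) encodes a further attractant of this kind. It had 4 counts in mock replicate 1, none in mock replicate 2, and 238 and 245 after LysoPS, or 0.0790 TPM, a value listed at 0, 12.5 and 10.6 TPM. It was thus all but absent from mock and the lowest of the CXCR2 ligands after LysoPS. The log2 fold change was 6.77 ± 0.67 (adjusted p = 0.00335) and 5.57 without mock replicate 2, and without mock replicate 1 no mock count remained. The length implied by its counts and deposited FPKM was 3.34 times longer in mock replicate 1 than in the LysoPS library with the shortest, and GENCODE M21 lists for this gene an mRNA of 1016 bases and a retained-intron transcript of 3498 bases. To which of them the 4 mock counts belong was not tested. Cxcl2 and Cxcl3 are close paralogs, whose annotated transcripts share 126 stretches of 50 bases, of 2159 in Cxcl2 and 3587 in Cxcl3, so a small part of their reads may have been split between them, and the other members shared none.

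Cxcl5 (ENSMUSG00000029371, 90759360 to 90761624) encodes the neutrophil attractant also known as LIX, which in many tissues comes from epithelial and stromal cells. Its mock values were 0.693 and 0.646 TPM, from 18 and 22 counts, and its LysoPS values 54.0 and 38.2 TPM, from 1528 and 1347 counts. Here the LysoPS replicates differed most among the CXCR2 ligands, by less than the distance between the groups. The log2 fold change was 6.13 ± 0.28 (adjusted p = 0.000458).

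**Figure D3:**
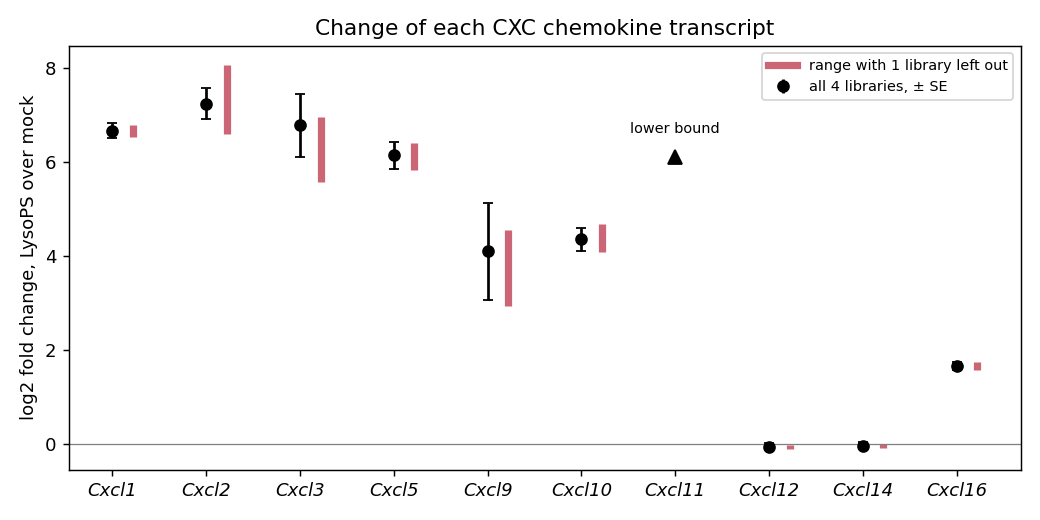
Log2 fold change of each member, LysoPS over mock, with its SE (black, 4 libraries) and the range when 1 library is left out (red bars, leaving out fits without any mock count). The triangle is the lower bound of Cxcl11, and Cxcl12 and Cxcl14 lie at -0.06 and -0.04.

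Of the CXCR3 ligands, Cxcl10 (ENSMUSG00000034855, chromosome 5, 92346638 to 92348889, minus strand), a T cell attractant induced by interferons and by NF-kappaB, was the member with the highest level after LysoPS. Its counts were 226 and 208 in mock and 4571 and 4808 after LysoPS, or 14.1 and 9.37 against 233 and 197 TPM. Unlike the CXCR2 ligands it was readily detected in both mock libraries. The log2 fold change was 4.35 ± 0.24 (adjusted p = 0.000745), between 4.07 and 4.68 with any 1 library left out.

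Cxcl9 (ENSMUSG00000029417, 92321347 to 92328079, minus strand), which is chiefly induced by interferon-gamma, was the lowest member after LysoPS. It had 2 counts in mock replicate 1 and none in mock replicate 2, against 24 and 15 after LysoPS, and reached only 0.456 and 0.229 TPM. The ratio of the groups was 18.7 with a 95% exact counting interval from 4.84 to 160, which covers counting error only. Its call (adjusted p = 0.0428) was the weakest of the family. It was lost without LysoPS replicate 1 (log2 fold change 3.49, adjusted p = 0.141) and without mock replicate 2 (2.94, adjusted p = 0.158), and without mock replicate 1, where no mock count remains, the adjusted p was 0.0550.

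Cxcl11 (ENSMUSG00000060183, 92359544 to 92365485, minus strand) is annotated as a polymorphic pseudogene in GENCODE M21 and as a transcribed pseudogene in RefSeq, since the C57BL/6 reference carries a form that is not expected to give the full chemokine. Its transcript rose after LysoPS, with no count in either mock library and 126 and 88 counts after LysoPS (4.2 and 2.41 TPM). Set against a floor of 3 counts for the mock group as a whole, the level was at least 68.4-fold higher. That bound takes the LysoPS counts as exact and leaves out the spread between replicates. The quasi-likelihood test of edgeR, which does not use the bound, gave an adjusted p of 0.00606. Cxcl10 and Cxcl11 lie within the span of Art3, which runs on the opposite strand and held 25 to 57 counts a library (log2 fold change 0.02, adjusted p = 0.968). The sources do not say whether strand was kept, so reads in bases shared by exons of overlapping genes cannot be told apart. Whether the exons of these genes share bases was not tested.

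The constitutive members did not pass the test. Cxcl12 (ENSMUSG00000061353, chromosome 6, 117168535 to 117181367, plus strand) encodes the ligand of CXCR4 and ACKR3 that retains progenitors and neurons in their niches. It had 1648 and 2252 counts in mock and 1737 and 2149 after LysoPS, and its log2 fold change was -0.06 ± 0.08 (adjusted p = 0.579). On the TPM scale it stood at 34.5 and 34.0 in mock and 27.0 and 27.1 after LysoPS, a log2 ratio of -0.34. Both LysoPS libraries lay below both mock libraries in TPM, as in 46.6% of tested genes, and in CPM (53.5 and 52.1 against 51.9 and 49.2), as in 34.5%. TPM shifted the median of 19021 tested genes by -0.18, so relative to that shift the difference was smaller, while the counts were scaled by TMM, under which the median lay at -0.01.

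Cxcl14 (ENSMUSG00000021508, chromosome 13, 56288647 to 56296551, minus strand) encodes a homeostatic chemokine of epithelia and stroma. Its counts were 906 and 1291 in mock and 990 and 1225 after LysoPS, and its TPM values 34.5 and 36.0 against 30.4 and 30.3. The groups were thus apart in TPM, whereas in CPM (29.4 and 29.8 against 29.6 and 28.0) they overlapped. The log2 fold change was -0.04 ± 0.08 (adjusted p = 0.748), and its log2 ratio of TPM, -0.22, was near the shift of all genes. Missing the threshold does not show that either gene stayed the same. Fibroblast markers, of which 3 of 7 were called lower, had a median log2 fold change of -0.16 from counts, and their part in these values was not tested.

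Cxcl16 (ENSMUSG00000018920, chromosome 11, 70453983 to 70459984, minus strand) encodes a membrane-bound chemokine that also takes up oxidised lipoprotein and, once shed, attracts cells with CXCR6. It was well expressed in mock, with 1053 and 1422 counts (30.6 and 29.2 TPM), and reached 3723 and 4403 counts (86.6 and 85.1 TPM) after LysoPS. Replicates were nearly level in both groups. Its log2 fold change of 1.66 ± 0.09 (adjusted p = 0.000592) was the smallest of the called members. The gene overlaps the opposite-strand gene Zmynd15, which held 111 and 180 counts in mock and 342 and 374 after LysoPS, and reads in the overlap may have been counted for either.

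Neighbouring genes on chromosome 5 did not follow the members closely. The genes Cxcl5, Cxcl3, Cxcl1 and Cxcl2 lie on the plus strand within 147 kb, and Cxcl9, Cxcl10 and Cxcl11 on the minus strand within 44.1 kb. Within 100 kb of the first span were 10 other gene models, of which 7 had no count in any library and 3 were tested. One of these, Pf4, the platelet factor that is also a CXC ligand, rose from 51.8 and 45.4 to 116 and 102 TPM (log2 fold change 1.35 ± 0.14, adjusted p = 0.00393). Ppbp, the precursor of another platelet CXC chemokine, lies between Cxcl5 and Pf4 and had 10 and 20 counts in mock and 54 and 29 after LysoPS (1.48 ± 0.54, adjusted p = 0.11). Mthfd2l, a mitochondrial folate enzyme beyond Cxcl2 that is named after its value was seen, had a log2 fold change of 0.06 ± 0.14. Within 100 kb of the second span 6 of 11 other models were tested. Over all tested genes 25.5% were called in either direction. The ribosome biogenesis gene Sdad1 (0.43) and the nuclear pore gene Nup54 (0.41) were called higher and the lysosomal membrane gene Scarb2 (-0.47) lower, each by far less than the CXC members between them.

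**Figure D4:**
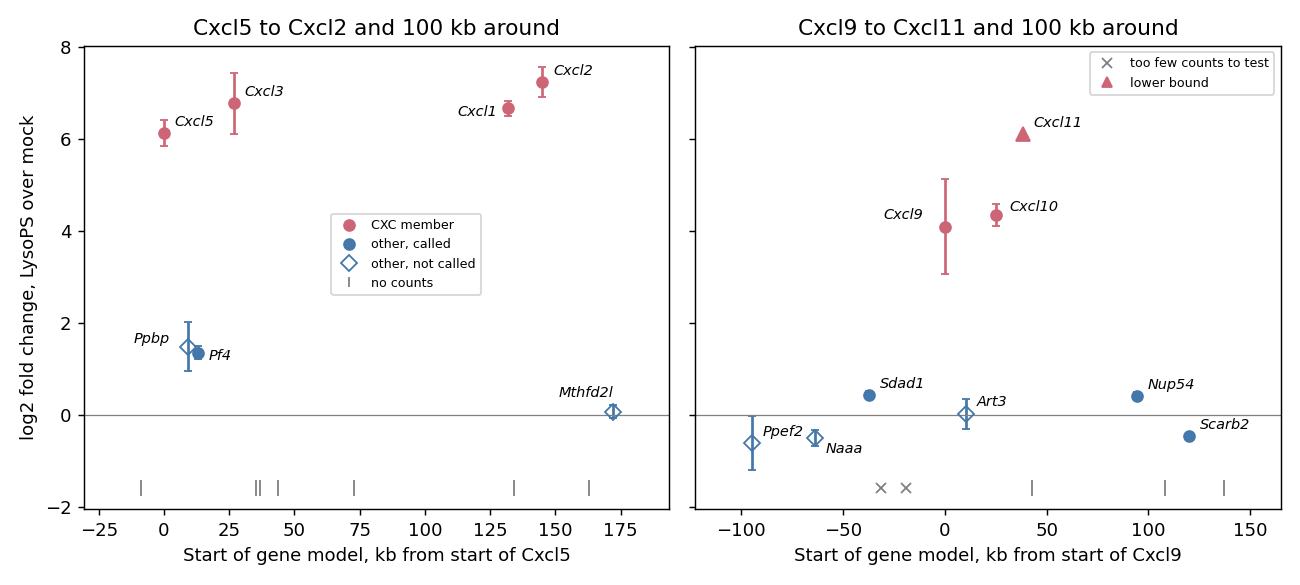
Log2 fold change (± SE) of gene models against the start of each model, in kb from the start of Cxcl5 (left) or Cxcl9 (right). Members (red) lie at 4.09 or higher, other genes (blue) between -0.62 and 1.48, and grey marks show models without counts or with too few to test.

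Most of the CXCR2 ligands had 3 prime untranslated regions rich in ATTTA, the core of AU-rich elements, to which proteins that speed mRNA decay bind. The stretch of 30 bases with the most ATTTA (capitals) in the longest such region of GENCODE M21 is shown for Cxcl1, Cxcl2 and Cxcl3 and, for contrast, for Cxcl10.
Cxcl1: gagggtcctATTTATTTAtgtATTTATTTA
Cxcl2: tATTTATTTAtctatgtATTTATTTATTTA
Cxcl3: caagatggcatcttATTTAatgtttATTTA
Cxcl10: caccggcatgtgcctttgtctctccATTTA
The densest stretch held 4 ATTTA in Cxcl1, 5 in Cxcl2 and 2 in Cxcl3, but only 1 in Cxcl5, as in Cxcl10, so clustering was not shared by all CXCR2 ligands. That of Cxcl12, a member not called, also held 2, as in Cxcl3. How common such stretches are over all genes was not counted. Over the whole region Cxcl1 held 7 ATTTA in 595 bases (11.8 per kb), Cxcl3 7.72 per kb, Cxcl2 7.35 per kb and Cxcl5 4.49 per kb. Cxcl10 held 3.00 per kb and the other 5 members between 0 and 1.40 per kb. The median over 18159 protein-coding genes was 1.48 per kb, and 6.33% of them reached 5 per kb, as Cxcl1, Cxcl2 and Cxcl3 did. Binding and decay were not measured.

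Of 9 regulators of chemokine mRNA decay, 3 were called higher and none lower, beside 12.8% and 12.6% of all tested genes. Their median log2 fold change was 0.23. The RNase Zc3h12a, which cuts chemokine mRNAs, went from 6.69 and 6.20 to 76.9 and 67.1 CPM (log2 fold change 3.48 ± 0.11, adjusted p = 0.000335). Zfp36, which binds AU-rich elements, rose from 29.3 and 29.6 to 116 and 111 CPM (1.95 ± 0.07), and Arid5a, which stabilises some inflammatory mRNAs, by 0.80 ± 0.13. The decay genes thus included members that act in opposite ways.

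Of 24 signalling genes upstream of the family, 22 were tested, and 16 were called higher and none lower, with a median of 0.71. Over all tested genes 12.8% were called higher and 12.6% lower. The smallest p-values were those of Nfkbiz, a nuclear cofactor of NF-kappaB (from 14.6 and 13.4 to 238 and 265 CPM, log2 fold change 4.17 ± 0.10), the transcription factor Cebpd (2.58 ± 0.10), the inhibitor Nfkbia, itself an NF-kappaB target (3.23 ± 0.13), and the subunit Nfkb2 (1.91 ± 0.09). The 2 genes left out for low counts were the interferons themselves, named here after their values were seen. Ifnb1 had 2 and 0 counts in mock and 6 and 4 after LysoPS, and Ifng had 0 and 4 counts in mock and 0 and 4 after LysoPS. Both transcripts were thus near the detection limit in all 4 libraries.

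Of 8 CXC receptors, 5 were tested, of which 1 was called higher and 2 lower, beside 12.8% and 12.6% of all tested genes. In log2 units the median change of these 5 was -0.55. Cxcr4, a receptor of CXCL12, fell from 47.5 and 48.2 to 24.8 and 28.4 CPM (log2 fold change -0.85 ± 0.10, adjusted p = 0.00478), and Ackr3, which scavenges CXCL12, from 78.6 and 72.8 to 46.6 and 49.3 CPM (-0.66 ± 0.08, adjusted p = 0.00604). In the same libraries 7 of 8 astrocyte markers were called lower, with a median of -0.83 over the 8, and whether the falls lie in the same cells was not tested. Cxcr6, the receptor of CXCL16, rose from 14 and 19 to 50 and 62 counts (1.70 ± 0.28, adjusted p = 0.0125). Cxcr3, with 12 and 14 counts in mock and 24 and 21 after LysoPS, and the atypical receptor Ackr1 did not pass (adjusted p = 0.246 and 0.420). Cxcr2, the receptor of the 4 induced neutrophil attractants, had 2 counts over all libraries, Cxcr1 none, and Cxcr5 6 to 12 a library.

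Among 5 other CXC ligands, 3 were tested and Pf4 alone was called, as given above, beside 25.5% of all tested genes called in either direction. The B cell attractant Cxcl13 had 19 and 0 counts in mock and 24 and 53 after LysoPS (adjusted p = 0.311), and Cxcl15 and Cxcl17 had no more than 4 counts in any library.

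Of 12 proteases that process CXC chemokines, 10 were tested, 7 were called higher and 2 lower, with a median of 0.49. Again 12.8% of all tested genes were called higher and 12.6% lower. The collagenase Mmp13 (4.42 ± 0.09) and the gelatinase Mmp9 (5.03 ± 0.33, from 2.50 and 1.25 to 65.5 and 54.4 CPM) rose most, with the neutrophil collagenase Mmp8 (2.80 ± 0.23). Adam17, one of the sheddases of CXCL16, rose from 129 and 125 to 205 and 209 CPM (0.71 ± 0.06), while the other, Adam10, named after its value was seen, did not pass (-0.21 ± 0.09, adjusted p = 0.166). Dpp4, which trims and inactivates CXCL10 and CXCL12 and is named after its value was seen, fell from 18.0 and 19.2 to 9.29 and 8.78 CPM (-1.04 ± 0.11, adjusted p = 0.00374).

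**Figure D5:**
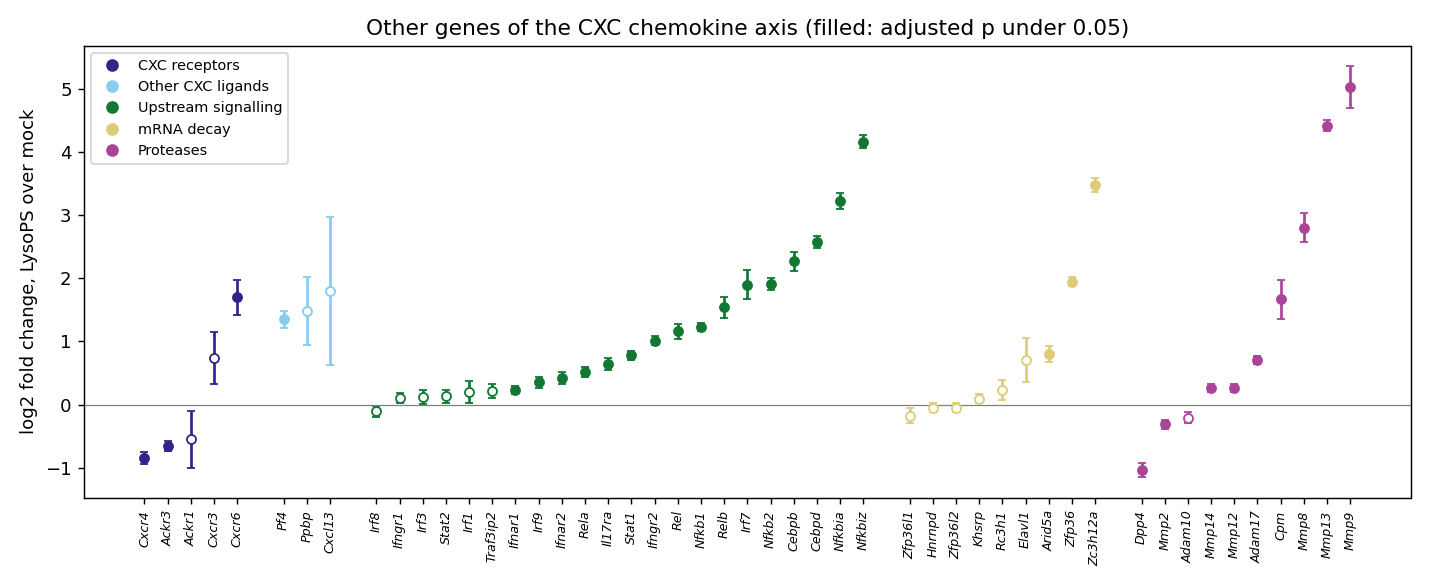
Log2 fold change (± SE) of the tested receptors, other ligands, upstream genes, mRNA decay regulators and proteases, filled where the adjusted p was under 0.05. Upstream genes run from -0.11 to 4.17 (Nfkbiz), and the receptors Cxcr4 and Ackr3 lie below 0.

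The genes most like Cxcl10 and Cxcl16 over the 4 libraries were found by the Euclidean distance of log2 CPM, centred on each gene's mean, among 12172 genes of at least 5 CPM in both groups. Nearest to Cxcl10 were the stromelysin Mmp3 (distance 0.197), the lectin receptor Clec4a2 (0.213) and the chemokine Ccl3 (0.385). Nearest to Cxcl16 were the endocytic recycling gene Ehd1 (0.0385), the actin regulator Was (0.0557) and the NADPH oxidase subunit Ncf1 (0.0586). With 4 libraries in 2 groups such likeness largely restates a similar fold change.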

How the data were processed

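The samples were 4 RNA-seq libraries, 2 mock and 2 LysoPS, grouped by their titles. The reads were handled with HISAT2, StringTie, Trimmomatic 0.36 and FastQC 0.11.2 on build GRCm38, per the submitters' processing notes, and how the counts were made and on which annotation release is not given in the sources used here. The deposited table holds counts, FPKM and TPM for each gene model and library, per the file headers. The deposited counts are whole numbers without normalization, the deposited TPM values are scaled by length and library, and the FPKM values deposited by the authors served to derive the length they imply with the counts and as an alternative to TPM for shares of the family.

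Counts were tested with edgeR 4.0.16 in R 4.3.3 (filterByExpr with a minimum count of 10, TMM scaling, quasi-likelihood F test with 2 residual degrees of freedom, two-sided, Benjamini-Hochberg adjustment over 19057 genes, threshold 0.05). The SE is the log2 fold change divided by the square root of F. The test was checked on simulated data. DESeq2 1.42.0, limma 3.58.1 and the other alternatives are in the closing section. Members, gene lists and rules were chosen with earlier results of these data known. Named were all members, all tested receptors and other ligands, up to 4 called genes with the smallest p of each further list, up to 6 called neighbours, and the 3 nearest genes by profile for 2 members. Sequences come from RefSeq (GRCm38.p6) and GENCODE M21, whose gene coordinates match those of the table for every member but Cxcl14. ATTTA was counted in the longest 3 prime UTR of each gene with at least 200 bases.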

Additional observations from a re-analysis of the deposited data

How the results depend on the processing

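Over all alternatives (DESeq2 size factors, no filter, at least 5 CPM in 2 libraries, DESeq2, limma-voom, robust dispersion, a replicate block, and each library left out in turn), 104 of 107 log2 fold changes of single members kept their direction and their side of the threshold, and the other 3 were those of Cxcl9 given above. The number of members called higher stayed between 6 and 8, with 6 under the stricter filter, which did not test Cxcl9 and Cxcl11, 7 with DESeq2, which gave Cxcl9 no adjusted p, and 7 to 8 with 1 library left out. The number called lower was 0 in every fit. Over all genes 4854 were called, from 2165 (without mock replicate 2) and 2223 (without mock replicate 1) to 5356 with 1 library left out, and the cause was not tested. With the replicate block 5433 genes were called, and 8 members higher. Deviations from the group means correlated at only 0.0775 between libraries of the same number, and the numbers were not taken as pairs. A correlation over all genes cannot show whether cultures were paired. Single genes differed: Cx3cr1 had 132 and 13.4 CPM in mock replicates 1 and 2 and 176 and 19.5 after LysoPS. Gja1 had 1450 and 619 CPM in mock and 141 and 375 after LysoPS. Shares of the family after LysoPS were nearly the same with FPKM or counts per implied length, which was bound to be so. Within a library TPM and FPKM differ by a constant, and the implied length was derived from FPKM. These alternatives thus do not test the shares. Depth limits Cxcl3, Cxcl9 and Cxcl11, whose mock counts were 4, 2 and 0.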

Other observations

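After LysoPS, 9 of the 10 members had a higher CPM in replicate 1 than in replicate 2 (8 of 10 in TPM), beside 50.1% of all tested genes in CPM and 39.1% in TPM. Whether this is particular to the members was not tested. Cxcl2 was the exception on both scales and Cxcl12 on that of TPM alone. The ratio of the replicates was widest for Cxcl9 (0.717 and 0.343 CPM), Cxcl11 (3.76 and 2.01) and Cxcl5 (45.6 and 30.8), and in each the LysoPS library with the lower value still lay above both mock libraries.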
